A study of Saccharomyces cerevisiae with 6 samples.

Results

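The genes of the yeast proteasome were followed through a change of carbon source in *Saccharomyces cerevisiae* cells with and without an excess of the protein phosphatase Ppz1. Members were taken by name, as every measured feature called *PRE*, *PUP*, *RPN* or *RPT* with a number, together with *SCL1*. This gave 34 genes of the 6687 features in the table. All 34 passed the minimum used for comparisons, a mean of 10 CPM over the 6 libraries (CPM, reads per 1000000 after scaling to the largest library), as did 5382 features in all.

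The cells were BY4741, a haploid of mating type a. The groups compared carried the multicopy plasmid pCM190 with the *PPZ1* open reading frame under a promoter that doxycycline shuts off (called PPZ1 cells here), or the empty pCM190 (control cells). Both were kept overnight with 100 µg/ml doxycycline, grown for 3.5 h without it (OD600 0.2 to 0.55), filtered, and placed for 1 h in SC medium without uracil that held 2% galactose, 0.25% glucose or 2% glucose. Each of the 6 combinations gave 1 mRNA-Seq library, so no difference between 2 libraries has a replicate check, and errors given as counting errors cover the sampling of reads only.

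The libraries held 1845237 to 6784469 reads in features, with the PPZ1 library in 0.25% glucose the shallowest. *PPZ1* itself stood at 2705, 17798 and 12538 CPM in PPZ1 cells in galactose, 0.25% and 2% glucose, against 75, 94.3 and 78.8 CPM in control cells, so the excess of its mRNA was smallest in galactose. The summed level of 5 genes specific to a cells was 497 to 1841 CPM in the libraries, against 32.7 to 44.0 CPM for 3 genes specific to alpha cells. Members received 12206 to 42771 reads per library, and the fewest reads for a single member were the 53 of *RPN14* in PPZ1 cells in 0.25% glucose.

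The proteasome degrades proteins that carry ubiquitin chains. Its 20S core is a barrel of stacked rings: outer rings of alpha subunits, which gate the entrance, and inner rings of beta subunits, of which Pre3 (beta 1), Pup1 (beta 2) and Pre2 (beta 5) carry the proteolytic sites. The 19S regulatory particle caps the barrel. Its base holds a ring of ATPases, Rpt1 to Rpt6, which unfold the substrate, the scaffold proteins Rpn1 and Rpn2, and the ubiquitin receptors Rpn10 and Rpn13. Its lid holds Rpn11, which removes the ubiquitin chain, and further Rpn proteins. In yeast most of these genes are activated by Rpn4, a short-lived transcription factor that the proteasome itself destroys and that binds the proteasome-associated control element.

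The name rule and the complex are not the same. Of the 34 genes, 14 encode the 20S core, 10 the 19S base and 8 the lid. The remaining 2 encode no subunit: *RPN4* encodes the transcription factor just described, and *RPN14* a chaperone that assists assembly of the base. *SEM1*, which encodes a small lid subunit, lies outside the rule and is given below as a non-member.

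The control element was looked up before the coding sequences, because it is the sequence most members share. The 9 letters GGTGGCAAA were searched on both strands of the 300 bases before each start codon in the R64 genome, whose coordinates match those of all 34 members in the table. An exact match stood before 27 of the 34 members, against 73 of 6007 such windows in the genome (1.22%). The windows of the genome, here and below, include those of the members. Since the element was chosen as one that members share, these counts are a description and no test. The shorter core GGTGGCA, which lies within the 9 letters, was found before the same number of members, 27, and in 163 windows (2.71%). No member had more than 1 exact match. The 27 matches lay 84 to 183 bases before the start codon (median 120), with 19 on the strand of the gene and 8 on the opposite strand. When 1 mismatch was allowed, a search added after the exact one was seen, 32 members had a match, against 7.72% of all windows. The members with neither were *RPN4* and *RPN14*, those that encode no subunit. The sequences below, read on the strand of the match with the element in capitals and 10 bases at each side, show 4 exact matches, from the members whose match is nearest to and farthest from the start codon and from 2 members that differ in galactose, and then all 5 matches with 1 mismatch.
RPT6, chrVII:411352-411380, minus strand: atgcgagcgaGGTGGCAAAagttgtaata
PUP3, chrV:349511-349539, minus strand: tggcactgccGGTGGCAAAaaagtgcaaa
RPN6, chrIV:286790-286818, minus strand: tggttccaagGGTGGCAAAtgttggtaga
PRE9, chrVII:761223-761251, plus strand: ttaccctgcaGGTGGCAAAaaatttatag
PUP1, chrXV:631891-631919, minus strand: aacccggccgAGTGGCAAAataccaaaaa
PRE5, chrXIII:901552-901580, plus strand: cctattatagAGTGGCAAAattaaaaatt
RPN8, chrXV:817085-817113, minus strand: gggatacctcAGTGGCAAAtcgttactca
RPN10, chrVIII:498968-498996, minus strand: tgtaaattccGGTGGCGAAaacccgcctg
RPN13, chrXII:965656-965684, minus strand: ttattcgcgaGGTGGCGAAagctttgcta
Counted from 1 at the 5′ end of the element, *PUP1*, *PRE5* and *RPN8* carried the change G1A, and *RPN10* and *RPN13*, which encode the ubiquitin receptors, carried A7G. A match describes letters in a window and does not show that a protein binds there.

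**Figure D1:**
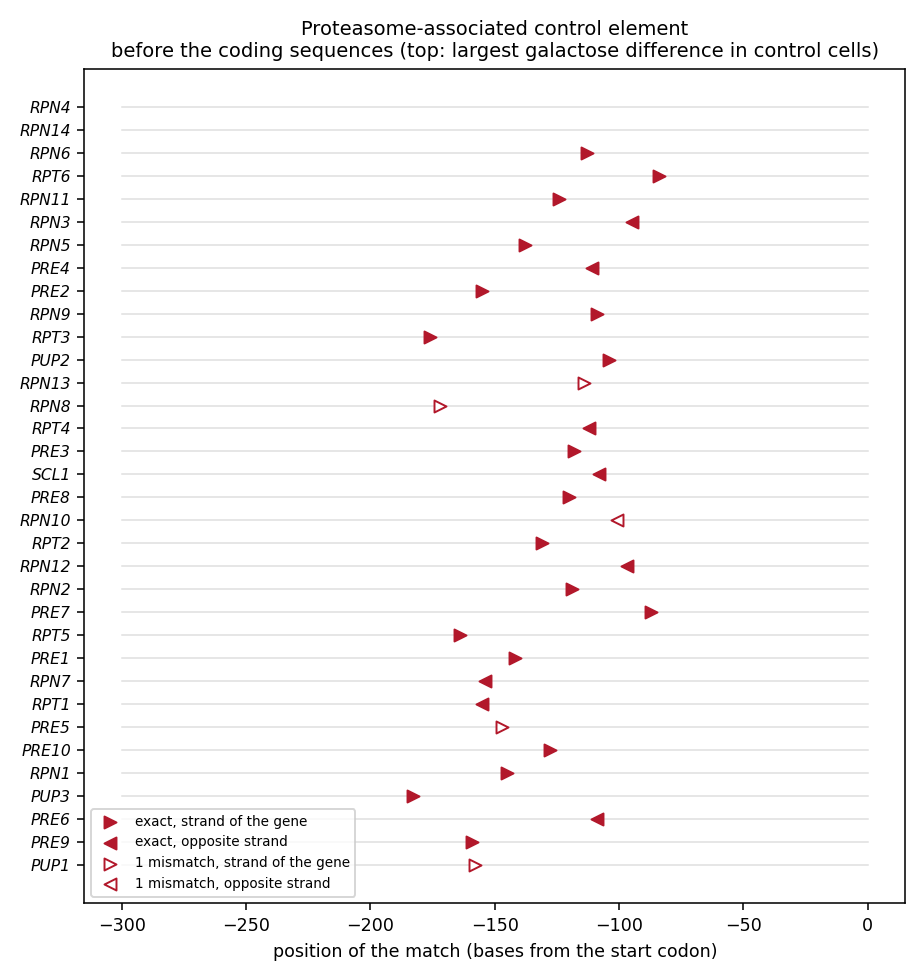
Position of the best match to the proteasome-associated control element in the 300 bases before each start codon (x axis, bases from the start codon), 1 row per member, ordered by the difference between galactose and 2% glucose in control cells. Filled symbols are the 27 exact matches and open symbols the 5 with 1 mismatch, pointing right on the strand of the gene and left on the opposite strand. All exact matches lie between 84 and 183 bases, and *RPN4* and *RPN14*, in the top rows, have none.

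Levels of different genes were compared per kilobase of the counted span, which is the coding sequence with 50 bp at each side. The 32 subunit genes stood close together. Averaged over the 6 libraries they ranged from 116 CPM per kb for *RPN1* to 311 CPM per kb for *RPN8*, a 2.70-fold range with a coefficient of variation of 27.5%, and their median of 173 CPM per kb lay above the 45.7 CPM per kb of all genes. By part of the complex, the medians of these averages were 229 CPM per kb for the alpha ring, 244 for the beta ring, 163 for the ATPases, 151 for the other base genes and 165 for the lid. The core genes had the higher levels, and their coding sequences are also the shorter ones, with a median of 764.5 bp against 1309.5 bp for the base and 1236 bp for the lid. The part of length in this order was not tested.

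The highest subunit genes per kilobase after *RPN8* (averages over the 6 libraries) were *PRE2* at 287, *PRE9* at 281 and *PUP2* at 273 CPM per kb. The lowest after *RPN1* were *RPN12*, a lid gene, at 126 CPM per kb and *RPT3* at 136 CPM per kb. Neighbours in this order differed by less than their range over the libraries, for example 209 to 396 CPM per kb for *PRE2* and 223 to 357 CPM per kb for *PRE9*. Both genes that encode no subunit lay below every subunit gene, with averages of 91.2 CPM per kb for *RPN4* and 33.5 CPM per kb for *RPN14*. The order of the 32 subunit genes was similar in PPZ1 and control cells (Spearman 0.89 in galactose, 0.86 in 0.25% glucose and 0.93 in 2% glucose), and less so between galactose and 2% glucose (0.75 in PPZ1 cells, 0.74 in control cells). These correlations run across genes that share their libraries and are given as a description.

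**Figure D2:**
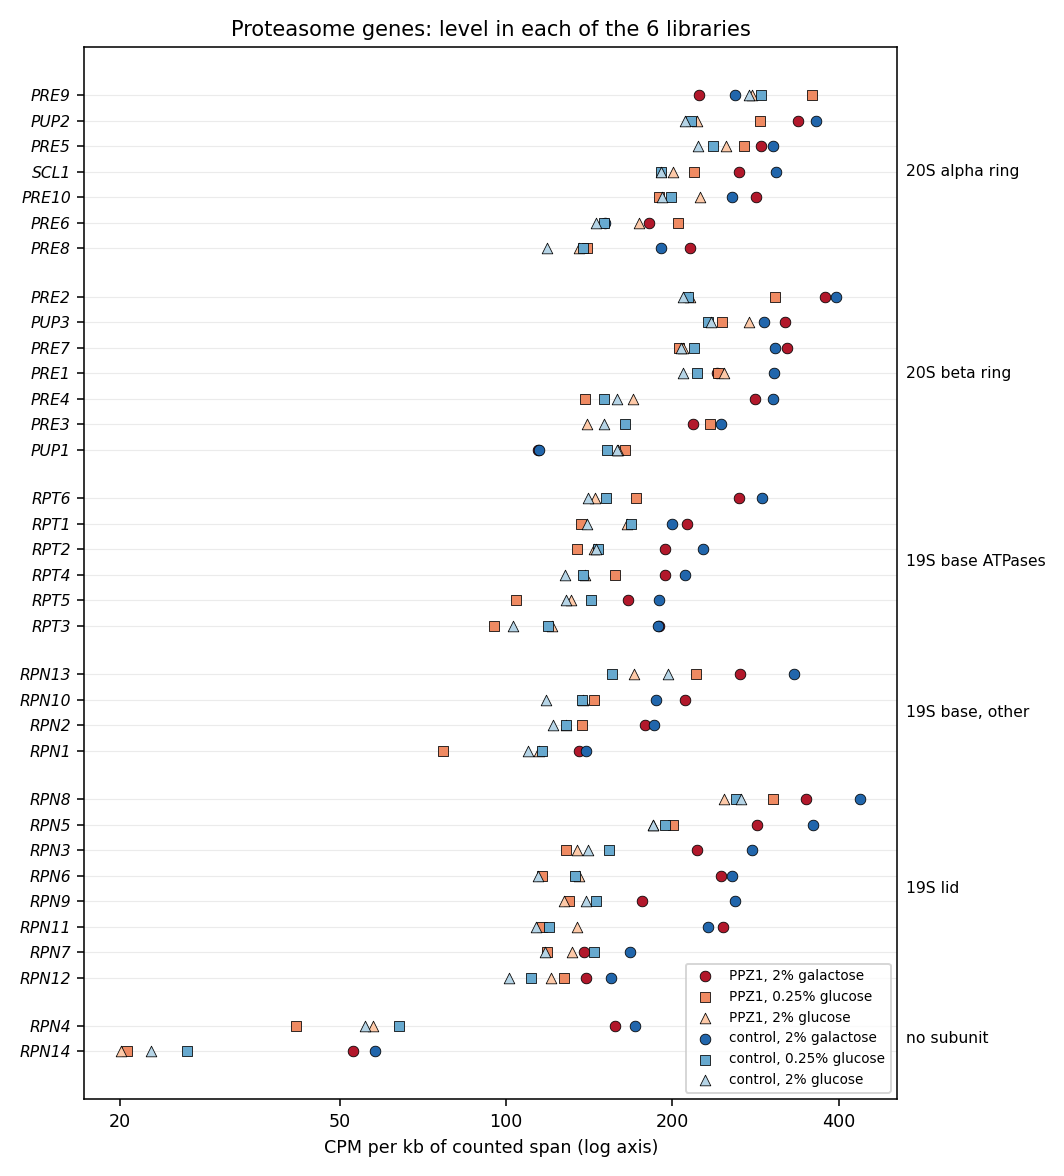
Level of each member (x axis, CPM per kb of counted span, log axis) in the 6 libraries, with members grouped by part of the complex and sorted by their average. Circles are galactose, squares 0.25% glucose and triangles 2% glucose, in reds for PPZ1 cells and blues for control cells. The subunit genes average 116 to 311 CPM per kb, *RPN4* and *RPN14* lie below them, and the galactose circles stand right of the other symbols in most rows but left of them for *PUP1* and *PRE9*.

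Galactose against 2% glucose sets a sugar that yeast uses less readily against its preferred one. Proteasome genes as a set stood modestly higher in galactose with either plasmid. Their share of all reads was 0.897% in PPZ1 cells in galactose, against 0.633% in 2% glucose, and 0.964% in control cells in galactose, against 0.601% in 2% glucose. The median log2 difference of the members was 0.49 in PPZ1 cells and 0.68 in control cells, beside −0.09 and 0.04 over all genes, and 31 of 34 members in PPZ1 cells and 32 of 34 in control cells had the higher level in galactose. Above the median of all genes, the value that splits all genes evenly, stood 32 of 34 members in PPZ1 cells and 32 in control cells. With upper-quartile scaling the medians of all genes moved to −0.26 and −0.21 in PPZ1 and control cells, and those of the members to 0.32 and 0.43, since such a scaling shifts all genes of a library alike.

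The differences were small for most single genes and alike in the middle of the set, though members ran from −0.47 to 1.45 in PPZ1 cells and from −0.47 to 1.62 in control cells. At least 2-fold higher in galactose were 2 of 34 members in PPZ1 cells (background over all genes 19.5%) and 5 of 34 in control cells (background 22.7%), so 2-fold differences were not more frequent among the members than among all genes. No member was 2-fold lower, beside 21.2% of all genes in PPZ1 cells and 19.8% in control cells. At 1.5-fold, 16 members were higher in PPZ1 cells (background 28.9%) and 22 in control cells (background 32.4%). The middle 50% of the members lay between 0.27 and 0.66 in PPZ1 cells, against −0.86 and 0.75 for all genes, and between 0.52 and 0.91 in control cells, against −0.79 and 0.90 for all genes. The cumulative plot of 5 gene groups shows the steep curve of the proteasome genes inside the wide one of all genes. The genes of autophagy (*ATG*), the other main route of protein breakdown, had medians of 1.31 in PPZ1 cells and 1.56 in control cells over 26 genes. Those of the vacuolar proton pump had medians of −0.58 and −0.64 (17 genes), and those of cytosolic ribosomal proteins −1.78 and −1.95 (137 genes). The middle 50% of the ribosomal protein genes was similarly narrow, spanning 0.45 in PPZ1 cells and 0.46 in control cells, beside 0.39 and 0.40 for the members.

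**Figure D3:**
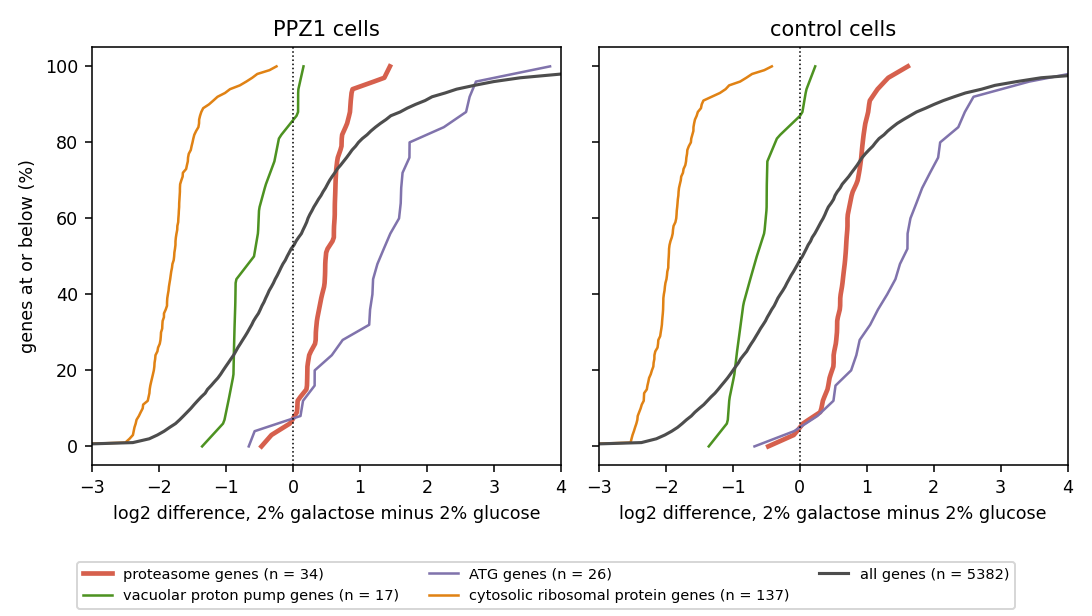
Cumulative share of genes (y axis, %) at or below each log2 difference between galactose and 2% glucose (x axis) in PPZ1 cells (left) and control cells (right), for proteasome genes and 4 other groups. The proteasome curve is steep around medians of 0.49 and 0.68, between the ribosomal protein genes on the left and the *ATG* genes on the right. The axis ends at −3 and 4, and a few genes lie outside it.

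A test was possible only in a model with 1 effect for the plasmid and 1 for the carbon source, which treats the response to sugar as equal in both plasmids and takes what is left as error (edgeR quasi-likelihood test, p adjusted over 5886 genes). By it 22 of 34 members rose in galactose against 2% glucose, beside 31.6% of all genes, and 1 fell, beside 31.5%. The members that rose were 3 of 7 alpha genes, 4 of 7 beta genes, 4 of 6 ATPase genes, 3 of 4 other base genes and 6 of 8 lid genes, besides *RPN4* and *RPN14*. The fit was repeated without each of the 6 libraries in turn. *RPN4* and *RPN14* were the members called as higher in all 6 of these fits. The members' median in them ran from 0.46 without the control library in galactose to 0.64 without the PPZ1 library in galactose. Over all genes the medians there were 0.01 and −0.03. How many single subunit genes pass rests on single libraries, and the number called among all genes also moved between these fits.

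*RPN4* had the largest difference of any member. It stood at 267, 70.6 and 97.2 CPM in PPZ1 cells in galactose, 0.25% and 2% glucose, against 291, 108 and 94.2 CPM in control cells. Both galactose libraries were above all glucose libraries, 2.72-fold over 2% glucose in PPZ1 cells and 3.07-fold in control cells, or 1.45 ± 0.08 and 1.62 ± 0.08 in log2 units (counting SE). In the additive model the gene for this activator rose by 1.52 ± 0.20 in log2 units (SE, adjusted p = 0.000136).

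*RPN14*, the base assembly chaperone gene, came next. Its levels were 71.5, 27.9 and 27.2 CPM in PPZ1 cells in galactose, 0.25% and 2% glucose, against 78.5, 35.8 and 30.8 CPM in control cells. Again the galactose libraries did not overlap the glucose libraries. What share of all genes separates in this way was not counted, for *RPN4*, for *RPN14* or for the genes below. The fitted rise was 1.35 ± 0.18 in log2 units (SE, adjusted p = 0.000178). Both of these genes lack the control element within the window searched.

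The 8 lid genes had a median log2 difference of 0.56 in PPZ1 cells and 0.93 in control cells, against 0.62 and 0.56 for the beta ring, 0.34 and 0.45 for the alpha ring, 0.45 and 0.68 for the ATPases, and 0.54 and 0.63 for the other base genes. The lid median was thus the highest in control cells, and the beta ring median in PPZ1 cells. *RPN6*, whose protein ties the lid to the core, stood at 344, 163 and 191 CPM in PPZ1 cells in galactose, 0.25% and 2% glucose, against 360, 187 and 160 CPM in control cells. *RPN11*, the gene of the deubiquitinating lid subunit, stood at 253, 119 and 137 CPM in PPZ1 cells and 237, 122 and 116 CPM in control cells, in the same order of sugars. Both were higher in each galactose library than in any glucose library and rose in the model, by 0.99 ± 0.18 for *RPN6* (SE, adjusted p = 0.00106) and 0.94 ± 0.18 for *RPN11* (SE, adjusted p = 0.00128), calls that each failed in 1 of the 6 fits without a library. The lid genes *RPN3* (371, 214 and 224 CPM in PPZ1 cells, 466, 256 and 235 CPM in control cells) and *RPN5* (409, 288 and 266 CPM in PPZ1 cells, 517, 279 and 266 CPM in control cells) showed the same arrangement. *RPN12*, a lid gene whose protein joins the lid late in assembly, differed less, with 129, 118 and 112 CPM in PPZ1 cells and 143, 102 and 93.7 CPM in control cells (adjusted p = 0.0939 in the model).

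In the base, all 10 genes had the higher level in galactose with either plasmid, and all 10 lay above the median of all genes. Their medians were 0.48 in PPZ1 cells and 0.65 in control cells, beside −0.09 and 0.04 over all genes. *RPT6* was the ATPase gene with the largest difference, at 348, 227 and 191 CPM in PPZ1 cells and 383, 200 and 185 CPM in control cells in galactose, 0.25% and 2% glucose. *RPN10*, a ubiquitin receptor gene, stood at 191, 131 and 125 CPM in PPZ1 cells and 169, 125 and 107 CPM in control cells. The receptor gene *RPN13* stood at 152, 126 and 97.2 CPM in PPZ1 cells and 189, 88.9 and 112 CPM in control cells. The galactose libraries were the highest for each of these 3 genes, which all rose in the model (adjusted p = 0.00189 for *RPT6*, 0.0122 for *RPN10* and 0.0354 for *RPN13*). Leaving out 1 library in turn, the call held in 4, 2 and 3 of 6 fits for *RPT6*, *RPN10* and *RPN13*. The span counted for *RPT1* shares 193 bp with a feature on the same strand, *YKL145W-A*, so reads of the overlap cannot be assigned to 1 of them.

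The 20S core was the part whose genes differed most among themselves. Its 14 genes had medians of 0.36 in PPZ1 cells and 0.55 in control cells, and ranges of −0.47 to 0.80 and −0.47 to 0.94. *PRE2*, the gene of the chymotrypsin-like beta 5 subunit, stood at 364, 296 and 208 CPM in PPZ1 cells in galactose, 0.25% and 2% glucose, against 382, 206 and 201 CPM in control cells, and rose by 0.85 ± 0.22 in the model (SE, adjusted p = 0.00729), a call made in 4 of the 6 fits without a library. *PRE3*, that of the caspase-like beta 1 subunit and the one of the 3 catalytic genes with an intron, stood at 188, 202 and 121 CPM in PPZ1 cells and 212, 142 and 130 CPM in control cells. Its PPZ1 library in 0.25% glucose was thus not below its PPZ1 library in galactose (galactose against 0.25% glucose −0.10 ± 0.09, counting SE), unlike that of *PRE2*. *PRE3* also rose in the model (adjusted p = 0.0334, in 2 of the 6 fits).

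*PUP1*, the gene of the trypsin-like beta 2 subunit, ran the other way. It stood at 101, 145 and 141 CPM in PPZ1 cells in galactose, 0.25% and 2% glucose, against 101, 135 and 141 CPM in control cells. The galactose libraries were the lowest, by −0.47 ± 0.09 in PPZ1 cells and −0.47 ± 0.09 in control cells in log2 units (counting SE), and it was the member that fell in the model (−0.49 ± 0.18, SE, adjusted p = 0.0394), a call made in 2 of the 6 fits without a library. Over the 3 proteolytic genes the levels in galactose were 378, 218 and 114 CPM per kb for *PRE2*, *PRE3* and *PUP1* in PPZ1 cells and 396, 245 and 115 CPM per kb in control cells, against 216, 140 and 159 CPM per kb in PPZ1 cells and 209, 150 and 159 CPM per kb in control cells in 2% glucose. The ratio between these genes' levels was thus wider in galactose.

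Of the other core genes, *PRE9*, that of the alpha 3 subunit, stood at 196, 313 and 245 CPM in PPZ1 cells in galactose, 0.25% and 2% glucose, against 228, 254 and 241 CPM in control cells, lowest in galactose in both (adjusted p = 0.37 in the model). *PRE6* (alpha 4) stood at 157, 177 and 151 CPM in PPZ1 cells and 131, 130 and 126 CPM in control cells, so that its levels varied little with the sugar. *PRE1* (beta 4) stood at 168, 169 and 173 CPM in PPZ1 cells and 213, 155 and 145 CPM in control cells, with a difference between galactose and 2% glucose of −0.04 ± 0.07 in PPZ1 cells and 0.54 ± 0.07 in control cells (counting SE, adjusted p = 0.312 in the model). *PRE8* (alpha 2) stood at 184, 120 and 116 CPM in PPZ1 cells and 163, 118 and 101 CPM in control cells, above in galactose with either plasmid (adjusted p = 0.00926 in the model, a call made in 2 of the 6 fits).

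**Figure D4:**
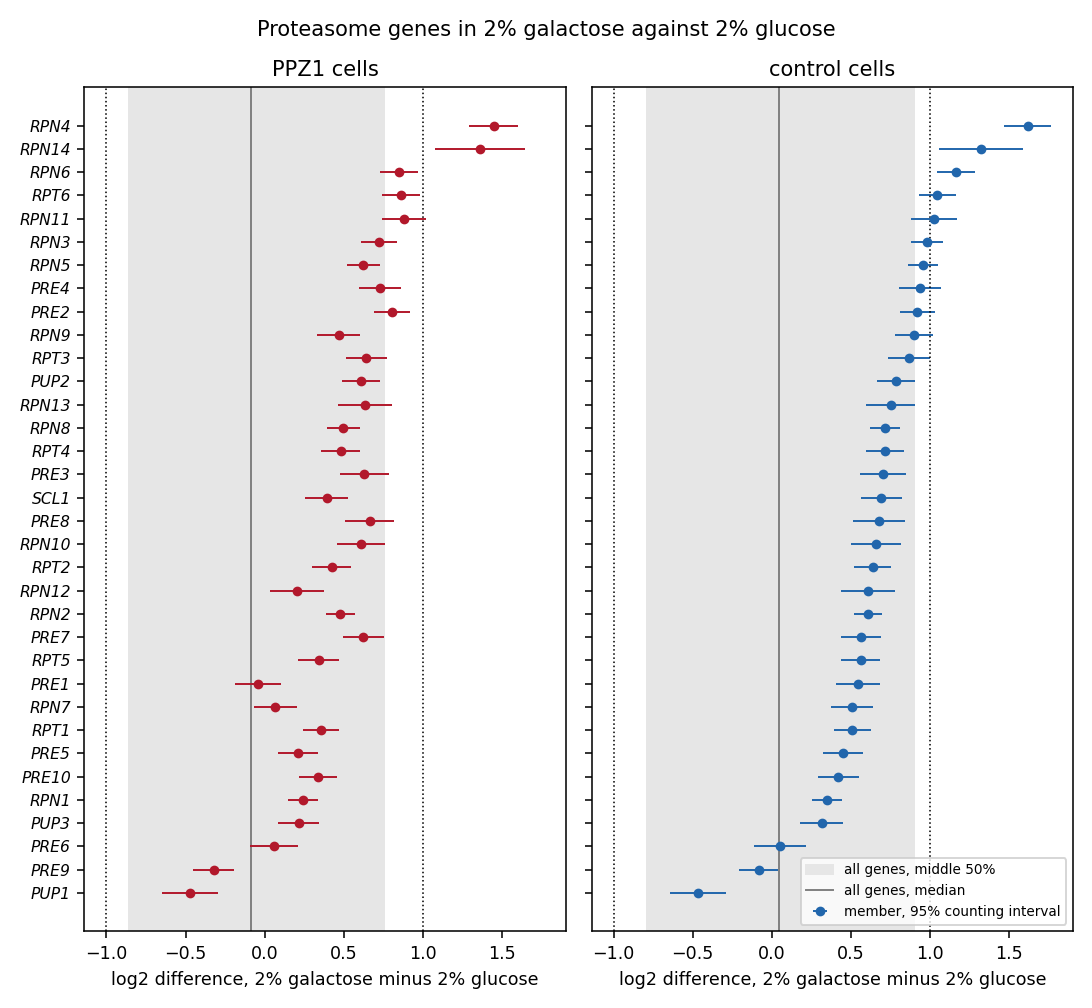
Log2 difference between galactose and 2% glucose (x axis) for each member in PPZ1 cells (left) and control cells (right), with 95% counting intervals, sorted by the value in control cells. The grey band is the middle 50% of all genes and the grey line their median, and dotted lines mark 2-fold. *RPN4* and *RPN14* stand right of the 2-fold line in both panels, most subunit genes lie between 0 and 1, and *PUP1* lies at −0.47 in both.

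The log2 difference between galactose and 2% glucose was compared between plasmids next. Its signed value was lower in PPZ1 cells for 31 of 34 members, with a median of the differences of −0.18. Of all genes, 67.9% also had the lower value in PPZ1 cells, with a median of −0.11. For genes that fall in galactose, such as *PRE9* (−0.32 in PPZ1 cells, −0.08 in control cells), a lower value is a larger fall. The median difference was −0.32 over the 8 lid genes, −0.17 over the 10 base genes and −0.11 over the 14 core genes. Corrected for coding length by a running median, the median over the members was −0.04 and that over the lid genes −0.17. The largest single differences were those of *PRE1* (−0.59 ± 0.10), *RPN7* (−0.44 ± 0.10) and *RPN9* (−0.43 ± 0.09, counting SE). With 1 library per condition the difference of responses could not be tested. The order of the members was similar in both, with a Pearson correlation of 0.93 and a Spearman correlation of 0.91 over the 34 genes, which share their libraries.

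Galactose against 0.25% glucose uses the same galactose libraries, and the members again stood higher in galactose as a set. Their medians were 0.47 in PPZ1 cells and 0.59 in control cells, beside 0.05 and −0.12 over all genes. At least 2-fold higher were 5 members in PPZ1 cells (background 23.5%) and 4 in control cells (background 18.9%), and none was 2-fold lower (background 19.7% and 21.3%). At 1.5-fold the counts were 13 in PPZ1 cells (background 33.4%) and 17 in control cells (background 28.2%). In the additive model 21 members rose (background 31.5%) and none fell (background 30.5%). *PRE4*, *RPN4*, *RPN6*, *RPN11* and *RPN14* were called as higher in all 6 fits that left out 1 library in turn. The members' median in those fits ran from 0.50 without the control library in galactose to 0.63 without the PPZ1 library in 0.25% glucose. Over all genes the medians there were 0.04 and −0.01. The signed response was lower in PPZ1 cells for 19 of 34 members, with a median of the differences of −0.11 (all genes 0.13, with 41.2% lower in PPZ1 cells). The Pearson correlation of the members' responses was 0.72 and the Spearman correlation 0.51. The differences ran from −0.82 ± 0.14 for *RPN13* to 0.56 ± 0.09 for *RPN1* (counting SE), and these values were −0.38 and −0.06 with the length trend removed.

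Low and high glucose gave similar levels of these genes. The medians of 0.25% against 2% glucose were 0.04 in PPZ1 cells and 0.08 in control cells, beside −0.09 and 0.13 over all genes. No member was 2-fold apart in either direction in PPZ1 cells (background 6.99%) or in control cells (background 1.36%). At 1.5-fold, *PRE3* was the 1 member past the threshold in PPZ1 cells (0.73 ± 0.09, counting SE, background 26.7%), and there was none in control cells (background 5.02%). In control cells 29 of 34 members had the higher level in 0.25% glucose, but with median-of-ratios scaling, under which the median of all genes was 0.01, 12 did, so no direction is drawn from this count. In the additive model no member was called higher (background 0.306%) or lower (background 0.102%), 0 members had an unadjusted p under 0.05, and DESeq2 also called 0. This rests on single libraries too. The members' median in the model was 0.09 without the control library in 0.25% glucose, beside −0.03 over all genes. Without the PPZ1 library in 0.25% glucose it was −0.06, beside 0.00 over all genes.

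PPZ1 cells differed little from control cells in the same sugar. In galactose the members' median was −0.11, beside −0.13 over all genes. No member was 2-fold apart (background 0.0929%) and none was 1.5-fold apart (background 2.68%). *RPN9* had the lowest value there, with 226, 167 and 163 CPM in PPZ1 cells and 334, 187 and 179 CPM in control cells in galactose, 0.25% and 2% glucose, or −0.56 ± 0.06 in galactose (counting SE). The median of the 8 lid genes was −0.30, against −0.07 over the 14 core genes. In 2% glucose the members' median was 0.07, beside −0.03 over all genes, again with no member 2-fold apart (background 0.334%) or 1.5-fold apart (background 1.43%), and the members lay between −0.20 for *RPN13* and 0.26 for *PRE6*. In galactose 9 of 34 members had the higher level in PPZ1 cells, but 22 did with median-of-ratios scaling, so no direction is drawn from that count.

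In 0.25% glucose the values spread more widely, and they followed coding length. The members' median was 0.06, beside −0.24 over all genes, with none 2-fold apart (background 11.1%) and 2 at least 1.5-fold lower (background 29.2% lower, and 34.1% in either direction). With median-of-ratios scaling the median of all genes was 0.00 and that of the members 0.31, so that directions in this pair depend on the scaling. The members past 1.5-fold were *RPN4* (−0.61 ± 0.13) and *RPN1* (−0.60 ± 0.07, counting SE). *RPN1* encodes the scaffold at which shuttle factors dock, and stood at 419, 237 and 354 CPM in PPZ1 cells in galactose, 0.25% and 2% glucose, against 431, 359 and 338 CPM in control cells. *RPT5*, an ATPase gene, came next with −0.45 ± 0.09, at 233, 146 and 184 CPM in PPZ1 cells and 266, 200 and 180 CPM in control cells. The highest values were those of *PRE2* (0.52 ± 0.07), *PRE3* (0.51 ± 0.09) and *RPN13* (0.50 ± 0.11). Their coding lengths are 864, 764 and 471 bp, beside a median of 894 bp over the members, so *PRE2* lies near that median.

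Across all 5382 genes the difference between PPZ1 and control cells in 0.25% glucose fell with coding length (Spearman −0.67), and over the members likewise (Spearman −0.61, n = 34), both across genes of the same 2 libraries. In galactose and in 2% glucose the values over all genes were −0.12 and −0.12. With the running median over length removed, the distance between the members' median and that of all genes in 0.25% glucose shrank to 0.03 from 0.30 without that step, *RPN4* stood at −0.22, *RPN1* at 0.22, and *RPN2*, the other large scaffold gene, stood at 0.84. Whether the length trend arose in the cells or in the library was not tested. The core and lid genes differ in length, so the split in 0.25% glucose between a median of 0.15 for the core and −0.09 for the 19S particle was also looked at without the trend. The medians were then 0.00 for the core, 0.18 for the base and 0.10 for the lid, so that the order of the parts turned.

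**Figure D5:**
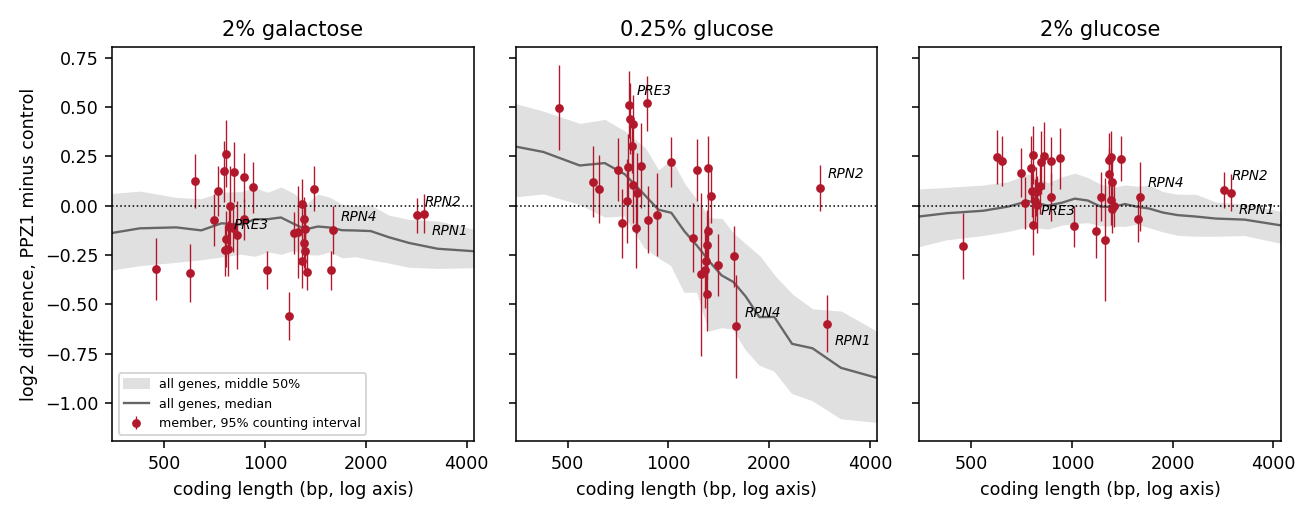
Log2 difference between PPZ1 and control cells (y axis) against coding length (x axis, bp, log axis) in galactose, 0.25% glucose and 2% glucose. Red points are the members with 95% counting intervals, the grey line and band the median and middle 50% of all genes in 20 length bins. In 0.25% glucose the line falls with length (Spearman −0.67) and most members follow it, with *RPN2* above the band, while the other panels are nearly flat (−0.12 in each).

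In the additive model no member was called different between PPZ1 and control cells. The model takes responses that differ between plasmids as error, so the lack of calls does not show equal levels. None was called higher (background 0.017%) or lower (background 0%), 1 member had an unadjusted p under 0.05 and DESeq2 called 0. That member, *PRE6*, had 0.45 ± 0.15 in log2 units (SE, edgeR adjusted p = 0.748), and it was called in the fits without either of the libraries in 0.25% glucose.

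Genes around the proteasome behaved less evenly than the subunit genes. *SEM1*, the lid gene outside the name rule, stood at 110, 125 and 95 CPM in PPZ1 cells in galactose, 0.25% and 2% glucose, against 120, 92 and 101 CPM in control cells (adjusted p = 0.438 for galactose against 2% glucose). Of 9 further assembly chaperone genes, 3 rose in galactose against 2% glucose in the model and 1 fell, a share of risen genes near the 31.6% of all genes. *TMA17*, an ATPase-dedicated chaperone gene, stood at 348, 53.7 and 49.8 CPM in PPZ1 cells and 345, 52.0 and 45.2 CPM in control cells. The chaperone gene *NAS2* stood at 99.7, 28.4 and 25.2 CPM in PPZ1 cells and 115, 22.3 and 21.0 CPM in control cells. These were larger differences than that of any member, with fitted rises of 2.85 ± 0.19 (SE, adjusted p = 3.26e-06) and 2.21 ± 0.21 (SE, adjusted p = 2.72e-05), and like *RPN14* both encode chaperones of the base. Of the other base chaperone genes, *HSM3* rose by 1.17 ± 0.19 (SE, adjusted p = 0.00056), while *NAS6* stood at 54.1, 69.5 and 56.1 CPM in PPZ1 cells and 70.2, 66.5 and 56.9 CPM in control cells (adjusted p = 0.635).

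Other chaperones serve the core. *UMP1*, whose product sits in the immature core, stood at 62.5, 78.0 and 68.2 CPM in PPZ1 cells and 72.1, 66.6 and 57.2 CPM in control cells (adjusted p = 0.701). *POC4*, of an alpha ring chaperone pair, stood at 9.72, 35.3 and 24.0 CPM in PPZ1 cells and 6.48, 25.6 and 28.5 CPM in control cells, and was the chaperone gene that fell (adjusted p = 0.000953). Its partner *IRC25* stood at 18.2, 32.1 and 25.8 CPM in PPZ1 cells and 23.2, 23.7 and 22.8 CPM in control cells. *POC4* and *IRC25* were also the chaperone genes of largest difference between PPZ1 and control cells in 0.25% glucose, at 0.45 ± 0.20 and 0.42 ± 0.21 (counting SE), about 2 counting errors. Of 5 genes for other proteins that bind the proteasome, 4 rose in galactose against 2% glucose in the model, beside 31.6% of all genes. Among them was *UBP6*, the gene of its bound deubiquitinase (adjusted p = 0.00123). The exception was *BLM10*, with log2 differences of −0.11 in PPZ1 cells and −0.45 in control cells.

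Of 24 genes for ubiquitin, its conjugation, shuttling and extraction by Cdc48, 7 rose in galactose against 2% glucose and 2 fell, beside 31.6% and 31.5% of all genes. *UBI4*, the stress-inducible polyubiquitin gene, stood at 1088, 256 and 216 CPM in PPZ1 cells in galactose, 0.25% and 2% glucose, against 1238, 200 and 165 CPM in control cells, and shares near-identical repeats with the other ubiquitin genes, so its reads are uncertain. *DDI1*, a gene of a shuttle factor with a protease fold, stood at 154, 41.1 and 37.5 CPM in PPZ1 cells and 173, 43.5 and 26.6 CPM in control cells. *UBI4* is 1 of 35 measured genes that hold an exact match in their window and are not members, whose median difference between galactose and 2% glucose was 0.41 in PPZ1 cells and 0.50 in control cells. Their quartiles were −0.03 and 1.35 in PPZ1 cells and 0.10 and 1.53 in control cells. Non-members with no exact match had medians of −0.11 and 0.02 (n = 4892). At least 1.5-fold higher were 40% of the 35 in PPZ1 cells and 42.9% in control cells, beside 28.5% and 32.0% of the 4892. Whether the element bears on these levels was not tested. Within the members, the 27 with an exact match had medians of 0.48 in PPZ1 cells and 0.68 in control cells, and the 5 subunit genes without one, which all have a match with 1 mismatch, had 0.50 and 0.66. The change G1A was shared by *PUP1*, which fell, and by *RPN8*, which rose (adjusted p = 0.0307, in 2 of the 6 fits).

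In 0.25% glucose the ubiquitin genes of largest difference between PPZ1 and control cells were *RUP1*, whose product binds the ligase Rsp5, at 81.5, 25.3 and 57.9 CPM in PPZ1 cells in galactose, 0.25% and 2% glucose against 87.4, 57.9 and 54.6 CPM in control cells, and *SSM4*, which encodes the ligase Doa10, at 68.3, 75.3 and 130 CPM against 72.1, 151 and 150 CPM. Of 7 genes linked to control of *RPN4*, 2 rose in galactose against 2% glucose (31.6% of all genes did), the activator genes *HSF1* (125, 46.9 and 67.8 CPM in PPZ1 cells, 140, 73.1 and 65.5 CPM in control cells, adjusted p = 0.00187) and *YAP1* (178, 84.3 and 116 CPM in PPZ1 cells, 199, 131 and 121 CPM in control cells, adjusted p = 0.0144). In 0.25% glucose all 7 were at least 1.5-fold lower in PPZ1 cells, as were 29.2% of all genes, most so *PDR1* (71.5, 28.4 and 72.2 CPM in PPZ1 cells, 63.2, 89.0 and 72.1 CPM in control cells) and *UBR2* (49.1, 25.3 and 35.1 CPM in PPZ1 cells, 65.0, 64.1 and 49.7 CPM in control cells), whose product marks Rpn4 for destruction. These are long genes, from the part of the length range where the median of all genes was lower in PPZ1 cells in 0.25% glucose. It was −0.56 in the length bin around 1869 bp and −0.90 in that around 4768.5 bp. The part of length in the values of these genes was not tested.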

How the data were processed

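The 34 members, the gene lists and the tests were chosen with earlier results of these data known. Per the labels, the authors extracted RNA (RiboPure-Yeast), made TruSeq LT libraries and aligned them with Bowtie2 (version and genome build not given in the sources used here). Per the sheet deposited with the table, the authors counted reads with SeqMonk 0.32.1 over coding sequences with 50 bp at each side, dropping duplicates and keeping opposite-strand reads. The control library in 0.25% glucose was deposited as counts. The 5 remaining libraries were deposited as a signal, that is, counts times 1 factor for each library. Dividing by it gave whole reads, within 0.01, for 100% of values.

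CPM are deposited values per 1000000 of the largest library's total. Differences are log2(CPM + 1), without a test for pairs of libraries, and understate changes of low genes. Intervals and standard errors of pairs are Poisson counting errors and cover counting error only. The additive model (edgeR 4.0.16, DESeq2 1.42.0 as an alternative, R 4.3.3, adjusted p under 0.05, Benjamini-Hochberg) was fitted to recovered reads with 2 residual degrees of freedom, and its p-values measure only the spread among these libraries. Length trends are running medians over 301 genes. Genes with values in every library were chosen by rule: *RPN4*, *RPN14*, the 3 proteolytic genes, *RPN10*, *RPN11*, *RPN13*, the 3 highest and 3 lowest members per comparison, *SEM1*, *UMP1*, *UBI4*, and 2 genes per further list and comparison. *RPT6*, *RPN2*, *RPN3*, *RPN7*, *RPN8*, *PUP2*, *RPT3*, *HSM3*, *NAS6*, *UBP6* and *BLM10* were named with values seen. Scripts were tested on simulated data. Alternatives covered the minimum, pseudocount, scaling, fold, length trend, member set, tool and single libraries, and the count of motifs with 1 mismatch and the distance to the median of all genes were added after the data were seen.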

Additional observations from a re-analysis of the deposited data

Results flagged for a closer look

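In 7 members the difference between 0.25% and 2% glucose had opposite signs in PPZ1 and control cells, each with a 95% counting interval that left out 0. The same held for 17.0% of all 5382 genes, near the 20.6% of members. The difference between plasmids was not tested, since each condition has 1 library. Log2 differences were −0.22 in PPZ1 cells and 0.22 in control cells for *RPN6*, −0.46 and 0.20 for *RPN4*, −0.35 and 0.21 for *RPT3*, and −0.58 and 0.09 for *RPN1*. They were −0.28 in PPZ1 cells and 0.26 in control cells for *RPT1*, −0.33 and 0.15 for *RPT5*, and, with the signs the other way round, 0.37 and −0.33 for *RPN13*.

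Coding length moved with these values: across all genes the difference between 0.25% and 2% glucose had a Spearman correlation with length of −0.57 in PPZ1 cells and 0.22 in control cells, and *RPN13* is the shortest member. With the length trend removed, *RPN1* had −0.03 in PPZ1 cells and −0.09 in control cells, and *RPN13* 0.03 and −0.38. By sign alone, *RPN13* thus kept opposite values and *RPN1* did not. The remaining members kept opposite signs, at −0.08 in PPZ1 cells and 0.12 in control cells for *RPN6*, and −0.23 and 0.01 for *RPN4*. In the same order they were −0.22 and 0.10 for *RPT3*, −0.15 and 0.10 for *RPT1*, and −0.19 and 0.04 for *RPT5*. Counting errors before the trend was removed were 0.094 for *RPN6*, 0.083 for *RPT1* and 0.113 for *RPN13* in PPZ1 cells. In control cells they were 0.081 for *RPN4*, 0.066 for *RPT3* and 0.059 for *RPT5*. Set against these errors, each of these genes had a value not separated from no difference, so none met the condition above. The part of length in this pattern was not tested. With median-of-ratios scaling *RPN1* had −0.03 in control cells.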

How the results depend on the processing

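With the length trend removed, *RPN1* in PPZ1 against control cells in 0.25% glucose stood at 0.22 in place of −0.60. For 0.25% against 2% glucose *RPN13* was called higher in 1 fit without a library and lower in 1 other, and in neither direction with all libraries. The distance between the medians of members and of all genes in galactose against 2% glucose ranged from 0.49 to 0.61 in PPZ1 cells and from 0.61 to 0.70 in control cells over 9 alternatives, and with the length trend removed that between PPZ1 and control cells in 0.25% glucose was 0.029 in place of 0.30. Members at least 2-fold higher in galactose against 2% glucose became 1 in PPZ1 cells with a minimum of 50 CPM, and in control cells 3 with median-of-ratios scaling, 2 with upper-quartile scaling and 3 with the length trend removed. Against 0.25% glucose, upper-quartile scaling gave 2 in PPZ1 cells and 1 in control cells. At 1.5-fold the counts were 16 and 22 against 2% glucose and 13 and 17 against 0.25% glucose, for PPZ1 and control cells, 1 for 0.25% against 2% glucose in PPZ1 cells, and 2 for PPZ1 against control cells in 0.25% glucose. At 3-fold they were 0 and 1 against 2% glucose and 1 and 0 against 0.25% glucose. Upper-quartile scaling changed the split of all genes 2-fold apart in galactose against 2% glucose in control cells to 18.0% higher and 26.3% lower, in place of 22.7% and 19.8%, and in galactose against 0.25% glucose in PPZ1 cells to 18.7% and 26.7%, in place of 23.5% and 19.7%. Median-of-ratios scaling changed it to 2.90% and 4.11% for 0.25% against 2% glucose in PPZ1 cells, in place of 1.90% and 5.09%, and to 2.4% and 4.74% for PPZ1 against control cells in 0.25% glucose, in place of 0.818% and 10.3%.

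DESeq2 called 50 genes in place of 24 for 0.25% against 2% glucose and 3 in place of 1 for PPZ1 against control cells. Leaving out 1 library in turn, the additive model called 4 to 33 members and 2588 to 4822 genes for galactose against 2% glucose, 5 to 31 members and 2474 to 4494 genes for galactose against 0.25% glucose, 0 to 9 members and 21 to 2127 genes for 0.25% against 2% glucose, and 0 to 1 members and 4 to 97 genes for PPZ1 against control cells. Those fits have fewer libraries and assume that the condition left with 1 library varies like the others. No paired analysis was possible because each condition has 1 library and the labels carry no replicate numbers. Depth limits *RPN14* most, with 53 reads in PPZ1 cells in 0.25% glucose.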
